A study of Gallus gallus with 34 samples.

Results

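Collagens and laminins are the structural proteins of connective tissue and of basement membranes, and their transcripts were followed here in the back of the chick eye during lens-induced changes of eye growth. The members were found by gene symbol: every gene of the deposited count table whose symbol begins with COL or LAM and denotes a collagen or laminin chain was taken. This gave 47 of the 13067 genes in the table, of which 37 are collagens and 10 are laminins. The rule itself uses no measured value, but it was set with earlier results of these data known. By role they fall into 5 fibrillar collagens, 6 cartilage collagens, 9 basement membrane collagens, 17 other collagens and 10 laminins. Among known chains, COL1A1, COL5A3, COL6A4, COL6A5, COL6A6, COL11A2, COL26A1, COL27A1 and LAMB3 were not found by symbol and, with 1 exception for COL1A1, are not analysed here.

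The tissue was the pooled retina, retinal pigment epithelium (RPE) and choroid of the right eye of male Leghorn/New Hampshire chicks, and 1 RNA-seq library was made per chick. Chicks wore a positive or a negative lens of 10 diopters over the right eye from post-hatch day 5, or no lens, for 1, 2 or 3 days, so that they were 6, 7 or 8 days old. A positive lens moves the focal plane forward, and eyes respond by elongating more slowly, whereas behind a negative lens they elongate faster. The No Lens chicks grew normally. The 9 groups held 34 chicks: 4 chicks with the positive lens and 4 with the negative lens on each day, and 3, 3 and 4 No Lens chicks on days 1, 2 and 3. All 34 chicks are separate animals, and each day is a separate set of chicks. The sequenced chicks were a subset chosen for strong and uniform responses in eye biometry, which limits how far the spread between them stands for that of an unselected flock. Because the 3 layers were not separated, fewer cells of a type and less RNA per cell cannot be told apart.

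Fibrillar collagens form the tensile fibres of the choroidal stroma and sclera. Collagens of cartilage make finer heterotypic fibrils, and in birds the sclera, which lies just outside the sampled tissue, contains a layer of cartilage. Collagen IV chains assemble as trimers into networks that, with trimeric laminins, make up the basement membranes of the RPE, the choroidal capillaries and the inner retinal surface. Bruch's membrane, between RPE and choroid, is built from both kinds of sheet. In myopia of birds and mammals, remodelling of this extracellular matrix is best known from the sclera.

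Levels are given as CPM (counts per 1000000 counts of the library) after TMM scaling over the 34 chicks, and they are compared between chicks for 1 gene, not between genes, because no transcript length was used. Library totals ran between 1592763 and 13765634 counts, with a median of 5014243.5. The shallowest library was that of chick 32 of the positive lens group at day 3. Of the 47 members, 44 had enough reads to be tested within each day, while COL9A2, COL10A1 and COL17A1 did not. Those 3 had no more than 20 counts in any chick. COL9A2 had no read in 9 chicks, COL17A1 in 2 and COL28A1 in 1. A count of 0 allows up to 3 counts in that library by counting error alone. The summed marker genes of photoreceptors, retinal neurons and glia, RPE, melanocytes, endothelium and smooth muscle were above 0 in every library, although single ones had no read in some, namely CLDN5 (endothelium) in 2 chicks and DES and MYOCD (smooth muscle) in 1 and 4. Among cartilage markers CHAD, a cartilage matrix protein, accounted for most of the summed level, and ACAN, the main cartilage proteoglycan, averaged 1.03 CPM and had no read in 3 chicks. Summed striated muscle markers (7 of 9 listed genes) stood above 100 CPM in 3 day 3 libraries, namely 729 CPM and 1663 CPM in positive lens chicks 26 and 36 and 155 CPM in 1 No Lens chick, while 28 of the 34 chicks were below 20 CPM. Positive lens chicks 2 (71.65 CPM, day 1) and 32 (61.4 CPM, day 3) and negative lens chick 39 (43.2 CPM, day 1) lay between these levels. Counts of members at day 3 are therefore also given without the 3 chicks above 100 CPM where they move, which keeps chick 32.

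The most abundant members by read count within their classes were COL1A2 and COL3A1 among fibrillar collagens, COL11A1 and COL2A1 among cartilage collagens, COL4A1 and COL4A2 among basement membrane collagens, COL8A1 and COL14A1 among the other collagens, and LAMA1 and LAMA2 among laminins. The mean over the 34 chicks ran between 0.345 CPM for COL9A2 and 251.5 CPM for COL4A1, with 9 members above 100 CPM and 15 below 10 CPM. The summed level of the 5 fibrillar collagens at day 1 was 635 ± 90.2 CPM in positive lens chicks, 743 ± 171 CPM in negative lens chicks and 784 ± 56.8 CPM in No Lens chicks (mean ± SD over chicks, as for all sums here). At day 2 it was 665 ± 239 CPM with the positive lens, 659 ± 79.2 CPM with the negative lens and 640.5 ± 101.5 CPM without a lens. At day 3 it was 949 ± 235 CPM with the positive lens, 723 ± 97.7 CPM with the negative lens and 649 ± 61.1 CPM without a lens. The positive lens group thus had the lowest mean of the 3 groups at day 1 and the highest at day 3. Without the 3 chicks with striated muscle markers, the day 3 means were 785 CPM in 2 positive lens chicks, 723 CPM in the 4 negative lens chicks and 671 CPM in 3 No Lens chicks.

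In the summed basement membrane collagens too, the positive lens mean was the lowest of the 3 groups at day 1 and the highest at day 3. They reached 564 ± 37.7 CPM in positive lens chicks against 740 ± 110 CPM in No Lens chicks at day 1, and 779.7 ± 166 CPM in positive lens chicks against 593 ± 73.2 CPM in No Lens chicks at day 3. With the 3 chicks left out the day 3 means were 645 CPM with the positive lens, 709 CPM with the negative lens and 621 CPM without a lens, so that the negative lens mean was then the highest. Summed laminins were 547 ± 54.9 CPM in positive lens chicks against 660.3 ± 54.9 CPM in No Lens chicks at day 1, and 684 ± 58.2 CPM in positive lens chicks against 592 ± 37.4 CPM in No Lens chicks at day 3. The summed cartilage collagens had group means between 287 and 316 CPM over the 9 groups. The summed other collagens were 716 ± 145 CPM in positive lens chicks against 602 ± 55.5 CPM in No Lens chicks at day 3, and without the 3 chicks 609 CPM in positive lens and 628 CPM in No Lens chicks. These sums are a description and were not tested.

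**Figure D1:**
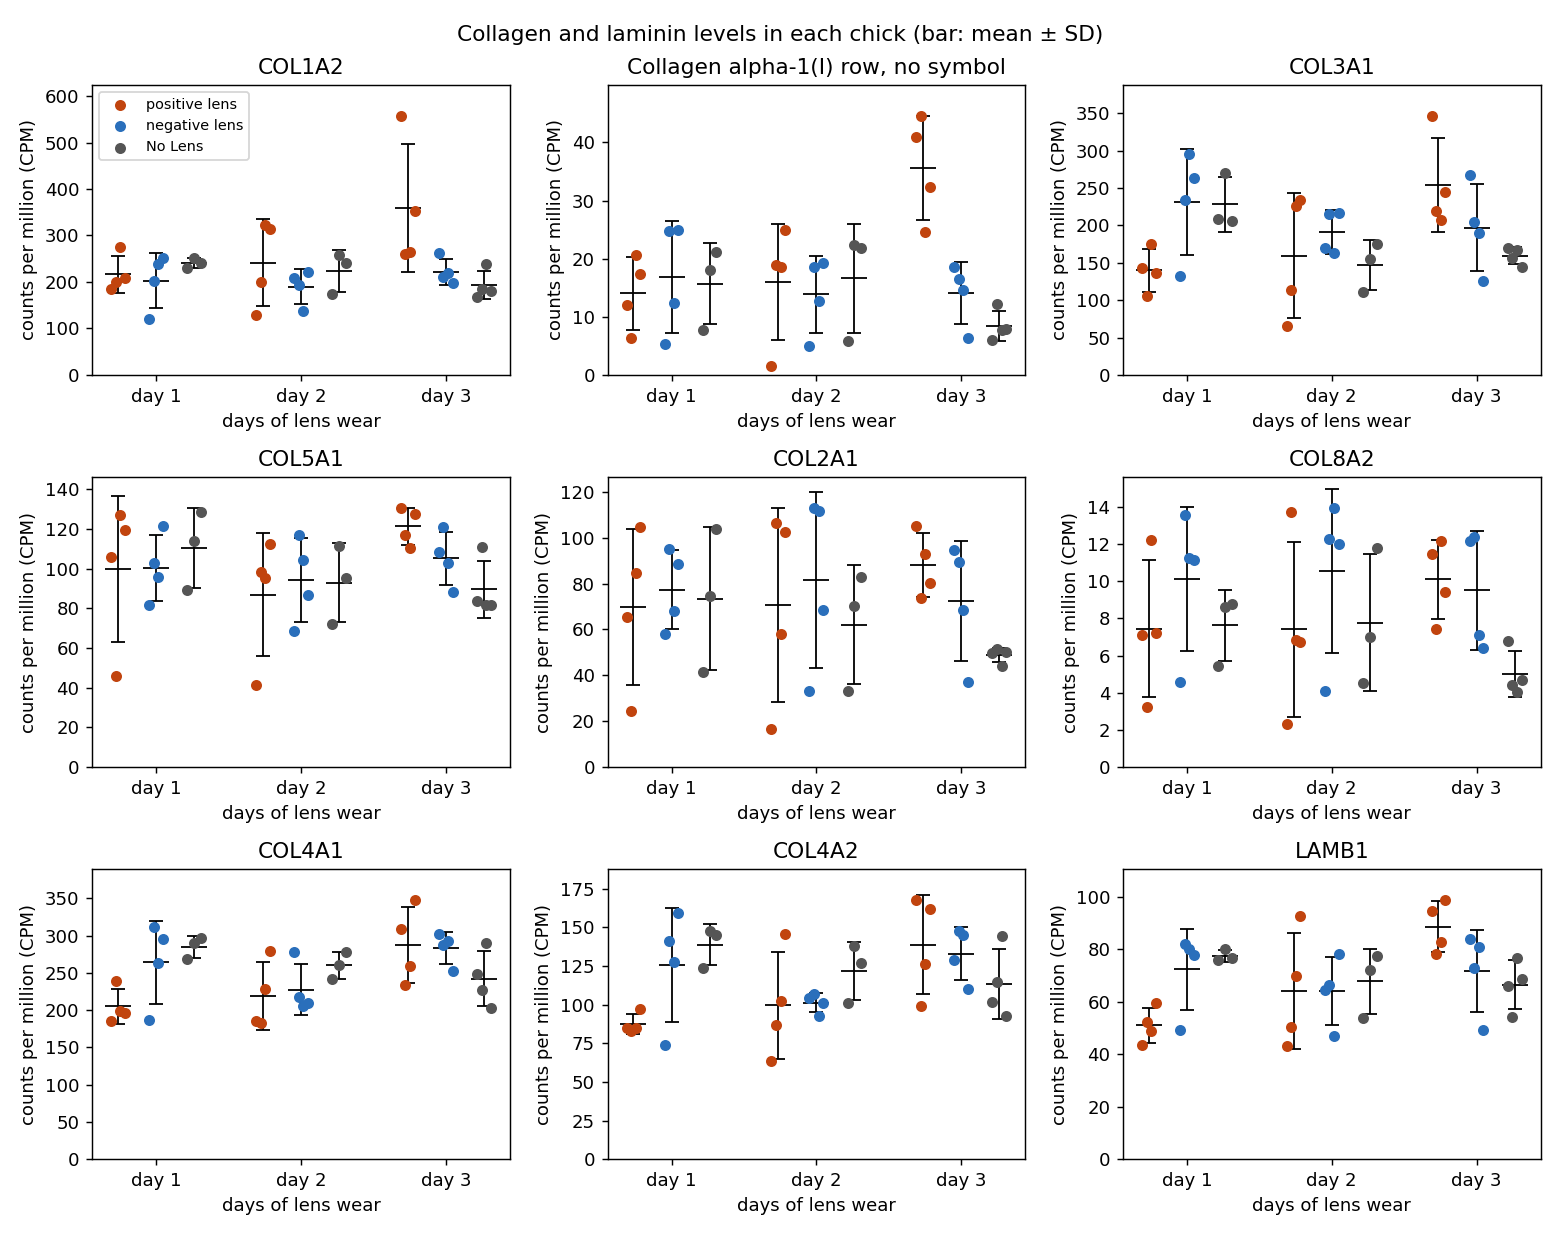
Level of 8 members and of the unnamed collagen alpha-1(I) row in each of the 34 chicks, in CPM on linear axes that start at 0, with groups ordered by day and, within a day, positive lens, negative lens and No Lens. Each point is a chick and each bar a group mean; COL1A2 lay at 261 to 557 CPM in positive lens chicks at day 3 and at 169 to 238 CPM in No Lens chicks of that day.

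After 3 days of the positive lens, COL1A2, the alpha-2 chain of type I collagen, rose. It had 557, 261, 265 and 353 CPM in the 4 positive lens chicks, against 169, 185, 238 and 181 CPM in the 4 No Lens chicks. The groups did not overlap, and the log2 fold change was 0.89 (SE 0.195; adjusted p = 0.0452, edgeR quasi-likelihood test over all genes). COL1A2 was the 1 member called of 44 tested, beside 101 of 11501 genes (0.878%), 94 of them higher and 7 lower. The call did not hold when all 34 chicks shared 1 fit (adjusted p = 0.183), with 1 surrogate variable (adjusted p = 0.051) or without the 3 chicks with striated muscle markers, where the log2 fold change was 0.40 (adjusted p = 0.393). It also missed the threshold when 9 of the 12 chicks of that day were left out in turn, with adjusted p between 0.0154 and 0.118 over the 12. The COL1A2 levels of 557 and 353 CPM, the highest of the 34 chicks, were those of chicks 26 and 36. These libraries also had the highest striated muscle marker sums, and the part of muscle in the COL1A2 values was not tested.

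The partner chain of COL1A2 in the type I collagen trimer has no symbol in the table. The gene identifier ENSGALG00000023973, described as a collagen alpha-1(I) chain in the deposited count table, is not a member by the symbol rule and was looked at after its values were seen. It had 40.9, 44.5, 24.5 and 32.3 CPM in positive lens chicks at day 3, against 6.07, 12.2, 7.68 and 7.90 CPM in No Lens chicks. Every positive lens chick was above every No Lens chick, with a log2 fold change of 2.03 (SE 0.293; adjusted p = 0.0283, edgeR). Without the 3 chicks with striated muscle markers the log2 fold change was 1.91 (adjusted p = 0.321), and with all 34 chicks in 1 fit the adjusted p was 0.152.

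Beyond the call, 17 of the 44 members were higher at an unadjusted p below 0.05 (38.6%) and 1, COL12A1, was lower, beside 13.1% of all genes higher. The median log2 fold change of the members was 0.306, against -0.007 over all genes tested. The positive lens and No Lens groups did not overlap in 6 members, all of them higher: COL1A2, COL2A1, COL3A1, COL8A2, LAMB1 and LAMB2. Over all genes, 9.14% were higher without overlap. Without the 3 chicks with striated muscle markers, 2 positive lens and 3 No Lens chicks were left. At an unadjusted p below 0.05, 3 members were then higher (6.82%) and 2 lower (4.55%), beside 7.55% of all genes higher and 2.81% lower. The median log2 fold change of the members was 0.067 in that fit. Of the 2 positive lens chicks left, chick 32 still had 61.4 CPM of such markers and was the shallowest library. Leaving out positive lens chick 36 alone gave 11 higher members. Single log2 fold changes without the 3 chicks were 1.27 for LAMB2, 0.999 for COL8A2, 0.78 for COL2A1, 0.60 for LAMC3, 0.35 for COL3A1, 0.28 for COL5A1, 0.17 for COL4A6 and 0.15 for COL15A1, each with the same sign as with all chicks and with adjusted p between 0.401 and 0.948.

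Of the other fibrillar collagens, COL3A1 and COL5A1 were higher at an unadjusted p below 0.05. COL3A1, the type III collagen of distensible tissue and vessel walls, had 346, 219, 207 and 244 CPM in positive lens chicks, against 170.1, 157, 167 and 144 CPM in No Lens chicks at day 3. All 4 positive lens chicks lay above all 4 No Lens chicks, but the log2 fold change of 0.66 (SE 0.186) missed the threshold by edgeR (adjusted p = 0.0768). COL5A1, a chain of the type V collagen that regulates the diameter of type I fibrils, had 130.4, 117, 110.3 and 127 CPM with the positive lens, against 83.5, 111, 81.8 and 81.8 CPM without a lens. Here 1 No Lens chick reached into the positive lens range, and the log2 fold change was 0.42 (adjusted p = 0.0681). COL5A2 and COL24A1 overlapped between the groups, with log2 fold changes of 0.068 and -0.13.

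Among the cartilage collagens, COL2A1, which encodes the type II collagen of cartilage and vitreous, had 105, 73.5, 93.1 and 80.2 CPM in positive lens chicks, against 49.8, 51.5, 44.3 and 50.1 CPM in No Lens chicks at day 3. The groups did not overlap and the log2 fold change was 0.84 (SE 0.212; adjusted p = 0.0605). COL11A1, which nucleates type II fibrils, had 161 ± 6.48 CPM in positive lens chicks and 173 ± 14.9 CPM in No Lens chicks (SD, n = 4 each), with overlapping ranges. Its log2 fold change was -0.13 (adjusted p = 0.395). COL9A1 and COL9A3, chains of the type IX collagen on the fibril surface, had log2 fold changes of 0.054 and -0.077. The cartilage markers tested at day 3 numbered 7, of which 1 was higher at an unadjusted p below 0.05, with a median log2 fold change of 0.259. Their summed level ran between 295 and 468 CPM in positive lens chicks and between 245.5 and 327 CPM in No Lens chicks, and their part in the COL2A1 values was not tested.

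Of the basement membrane collagens, 4 of 9 were higher at an unadjusted p below 0.05 and none was called by edgeR, while DESeq2 called COL4A6 and COL15A1 and limma-voom called COL4A6 and COL18A1. COL4A5 and COL4A6, which together form a collagen IV network of specialised epithelia and smooth muscle, had log2 fold changes of 0.67 and 0.64 (adjusted p = 0.127 and 0.0762). COL4A6 had 93.3, 54.7, 66.5 and 107 CPM in positive lens chicks, against 45.2, 63.9, 52.8 and 47.9 CPM in No Lens chicks, so that the lowest positive lens chick lay within the No Lens range. COL4A1 and COL4A2, the ubiquitous collagen IV chains, had smaller log2 fold changes of 0.24 and 0.30 (adjusted p = 0.337 and 0.345). COL4A3 and COL4A4 differed by -0.10 and -0.007. COL18A1, the basement membrane proteoglycan that carries endostatin, had 124, 80.3, 97.4 and 99.8 CPM with the positive lens, against 43.6, 85.1, 45.3 and 35.4 CPM without a lens (log2 fold change 0.96, adjusted p = 0.112). Only its lowest positive lens chick, chick 32, fell inside the No Lens range.

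Of the other collagens, COL8A2, a short-chain collagen of the corneal and vascular basement membranes, had 11.4, 7.42, 12.2 and 9.40 CPM in positive lens chicks, against 6.80, 4.44, 4.04 and 4.68 CPM in No Lens chicks. The groups did not overlap (log2 fold change 1.03, SE 0.263, adjusted p = 0.061). Its partner in type VIII collagen, COL8A1, overlapped, with 156 ± 19.3 CPM in positive lens chicks and 147 ± 28.4 CPM in No Lens chicks. COL16A1, a collagen associated with fibril surfaces, had a log2 fold change of 1.85, the largest of the 44, but with an SE of 0.579 it missed the threshold (adjusted p = 0.0991). The collagen VI chains, which form beaded filaments around cells, had log2 fold changes of 0.31 for COL6A1, 0.59 for COL6A2 and 0.39 for COL6A3 (adjusted p between 0.167 and 0.344). COL14A1, a fibril-associated collagen, had 161 ± 56.6 CPM in positive lens chicks and 118 ± 31.8 CPM in No Lens chicks (adjusted p = 0.371). COL12A1, another fibril-associated collagen, was the member on the other side, with a log2 fold change of -0.34 (adjusted p = 0.248).

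Among laminins, 5 of 10 were higher at an unadjusted p below 0.05, all of them beta or gamma chains save LAMA5. LAMB2, the beta-2 chain found at synapses and in retinal basement membranes, had 11.6, 6.07, 10.2 and 10.2 CPM in positive lens chicks, against 4.23, 4.63, 1.62 and 2.30 CPM in No Lens chicks at day 3. The lowest positive lens chick, chick 32, stood above the highest No Lens chick, and the log2 fold change was 1.63 (SE 0.486; adjusted p = 0.0883). LAMC3, a gamma chain of the retina, had 92.0, 85.02, 49.5 and 67.4 CPM with the positive lens, against 39.3, 50.4, 35.8 and 32.3 CPM without a lens (log2 fold change 0.87, adjusted p = 0.0662). Positive lens chick 33 lay just inside the No Lens range of LAMC3. LAMB1 and LAMC1, the widespread beta and gamma chains, had log2 fold changes of 0.41 and 0.41 (adjusted p = 0.147 and 0.238). The alpha chains LAMA1, LAMA2, LAMA3 and LAMA4 lay within -0.037 and 0.05 on the log2 scale.

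DESeq2 called 9 members at day 3, all higher with the positive lens: COL1A2, COL2A1, COL3A1, COL4A6, COL5A1, COL8A2, COL15A1, LAMB2 and LAMC3, beside 532 of 12050 genes (4.41%). The paper, which also used DESeq2 at this threshold, reported far fewer genes in all for this comparison. It states that an initial edgeR analysis had found very many genes here, and that DESeq2 was then chosen as more conservative. The reason for the difference between the DESeq2 counts was not tested. In the other lens against No Lens comparisons, DESeq2 called 5 and 9 genes with the positive lens at days 1 and 2. With the negative lens it called 18, 17 and 7 genes at days 1, 2 and 3. The paper's counts for these were equal or close, except for a lower count in the last of them. For the positive lens at day 3, limma-voom called 8 members, beside 662 of 11501 genes (5.76%). Leaving out single chicks moved the edgeR count of members between 0 and 11, and that of all genes called between 0 and 779. The member count is given by chick. It was 11 without negative lens chick 69, a chick that enters only the shared estimate of the spread, 3 without positive lens chick 32, 1 without negative lens chick 60 and 0 without any one of the remaining 9 chicks.

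After 1 day of the positive lens, several collagen IV, fibrillar collagen and laminin chains lay lower than in No Lens chicks. None of the 44 was called by edgeR, beside none of 11448 genes (0%), and none by DESeq2 or limma-voom. At an unadjusted p below 0.05, 6 members were lower and 0 higher, beside 1.83% of all genes lower: COL3A1, COL4A1, COL4A2, LAMA2, LAMA4 and LAMB1. The median log2 fold change of the members was -0.088, against -0.006 over all genes. The groups did not overlap in 6 members, all lower (COL3A1, COL4A1, COL4A2, COL5A2, LAMA2 and LAMB1), beside 2.68% of all genes.

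LAMB1 had 43.5, 52.1, 48.9 and 59.5 CPM in positive lens chicks at day 1, against 75.9, 80.1 and 76.5 CPM in No Lens chicks. Its log2 fold change was -0.59 (SE 0.155; unadjusted p = 0.00241, adjusted p = 1, edgeR). LAMA2, the alpha chain of muscle and vessel wall basement membranes, had 70.8, 64.5, 68.3 and 64.5 CPM with the positive lens, against 102.2, 101.8 and 79.8 CPM without a lens (log2 fold change -0.49, SE 0.13). In both genes every positive lens chick lay below every No Lens chick.

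The collagen IV pair lay lower as well at day 1. COL4A1 had 186, 239, 199 and 196 CPM in positive lens chicks, against 268, 290.5 and 296 CPM in No Lens chicks (log2 fold change -0.47, SE 0.145). COL4A2 had 84.6, 83.2, 84.97 and 97.3 CPM in positive lens chicks, against 124, 148 and 145 CPM in No Lens chicks (log2 fold change -0.66, SE 0.186). The ranges did not touch in either gene. The models of COL4A1 and COL4A2 overlap in the RefSeq gene table. Whether the counting used strand is not given in the sources used here, and without strand reads of the shared stretch cannot be told apart. COL3A1 had 143, 105, 175 and 137 CPM in positive lens chicks, against 208, 270.3 and 206 CPM in No Lens chicks (log2 fold change -0.70, SE 0.224), while COL1A2 overlapped (-0.15, SE 0.201). Smooth muscle markers were lower in the same comparison, with 3 of 6 tested (TAGLN, ACTG2 and MYH11) at an unadjusted p below 0.05 and a median log2 fold change of -0.65. Their summed level ran between 378 and 706 CPM in positive lens chicks and between 844 and 942.5 CPM in No Lens chicks at day 1, and their part in the collagen IV and laminin values was not tested.

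**Figure D2:**
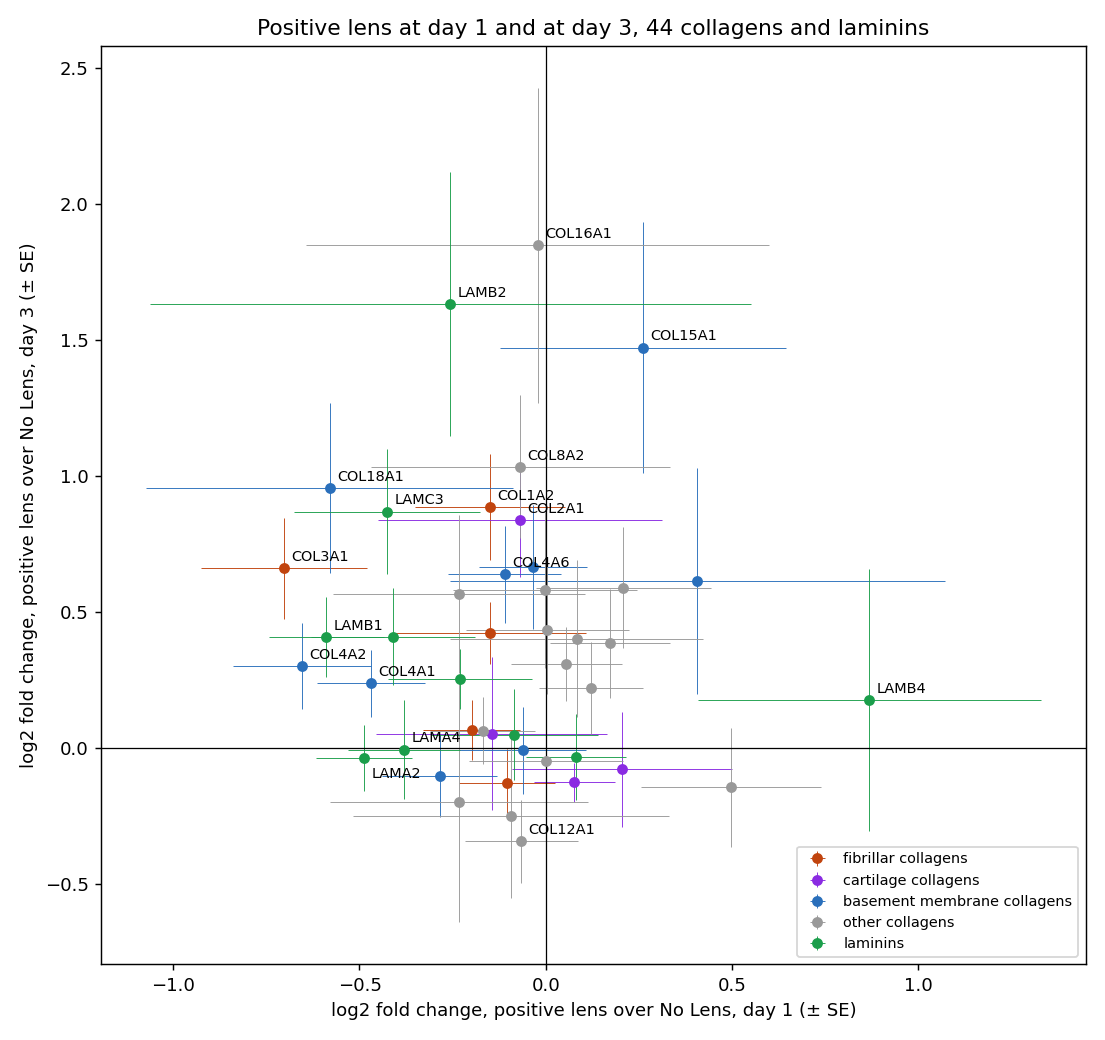
Log2 fold change of each tested member, positive lens against No Lens, at day 1 (horizontal axis) and at day 3 (vertical axis), 1 point per gene, by class. LAMB1, COL4A1, COL4A2 and COL3A1 lie in the upper left, with -0.59 at day 1 and 0.41 at day 3 for LAMB1.

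Whether the effect of the positive lens differed between day 3 and day 1 was tested directly in a fit of all 34 chicks. None of 45 members was called by edgeR, beside none of 11882 genes (0%), and DESeq2 and limma-voom called none either. At an unadjusted p below 0.05, 10 members had a larger effect at day 3 and 0 a smaller one (22.2%), beside 4.52% of all genes with a larger effect. The largest of these differences in log2 fold change were 1.55 for COL18A1 (SE 0.716), 1.39 for COL3A1 (SE 0.407) and 1.32 for LAMC3 (SE 0.496). LAMB1, with 1.02 (SE 0.286), had the lowest unadjusted p of 0.00125. COL1A2, COL4A1, COL4A2, COL4A5, COL4A6 and LAMC1 made up the rest, between 0.71 and 1.06, and adjusted p over the 10 ran between 0.583 and 0.623. Without the 3 chicks with striated muscle markers, 2 members (4.44%) had a larger effect at day 3 at an unadjusted p below 0.05, beside 1.66% of all genes. For the negative lens the same test called 0 of 11882 genes (0%) by edgeR and no member by DESeq2 or limma-voom. COL9A1 (1.20) and COL13A1 (0.94) had a larger effect at day 3 at an unadjusted p below 0.05, which is 4.44% of members, beside 1.7% of all genes.

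At day 2 few members differed between positive lens and No Lens chicks. None of 44 members was called by edgeR, none of 11410 genes was (0%), and DESeq2 and limma-voom called no member. The single member at an unadjusted p below 0.05 was COL8A1, a type VIII collagen chain of vascular matrix, which was lower, beside 1.25% of all genes lower. It had 99.0, 125, 125 and 129 CPM in positive lens chicks, against 119, 165 and 156 CPM in No Lens chicks (log2 fold change -0.29, SE 0.126). Next by p came COL24A1, a minor fibrillar collagen, with 24.2, 38.2, 31.4 and 35.4 CPM in positive lens chicks, against 27.9, 26.9 and 23.4 CPM in No Lens chicks (log2 fold change 0.30), and LAMA3, an epithelial laminin chain, with a log2 fold change of -0.46.

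The negative lens comparisons use the same No Lens chicks as the positive lens ones. By edgeR no member was called on any day, beside 0% of the 11448, 11410 and 11501 genes tested on days 1, 2 and 3, and DESeq2 and limma-voom called no member either. At day 1, 1 member was higher and 2 were lower at an unadjusted p below 0.05, beside 1.69% of all genes lower. LAMB4, a little-studied beta chain, had 2.08, 4.33, 4.55 and 2.001 CPM in negative lens chicks at day 1, against 0.946, 1.18 and 1.37 CPM in No Lens chicks (log2 fold change 1.36, SE 0.449), a gene never above 26 counts in a library. COL14A1 had 133 ± 26.1 CPM with the negative lens and 197 ± 15.2 CPM without a lens (-0.56 on the log2 scale), and COL9A1 had a log2 fold change of -0.70.

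At day 2, 2 members were lower with the negative lens at an unadjusted p below 0.05, beside 3.35% of all genes lower. LAMA4, an alpha chain of endothelial basement membranes, had 55.3, 60, 54.9 and 55.3 CPM in negative lens chicks, against 67.6, 59.5 and 68.03 CPM in No Lens chicks (log2 fold change -0.22). LAMA3 had 63.2 ± 22.6 CPM in negative lens chicks and 97.2 ± 24.2 CPM in No Lens chicks (-0.65). COL19A1, a minor fibril-associated collagen, followed by p, with -0.24.

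At day 3, COL8A2 and COL2A1 were higher and COL6A3 lower with the negative lens at an unadjusted p below 0.05. These were 4.55% of members higher and 2.27% lower, beside 6.74% of all genes higher and 3.53% lower. COL8A2 had 12.2, 12.4, 7.14 and 6.40 CPM in negative lens chicks, against 6.80, 4.44, 4.04 and 4.68 CPM in No Lens chicks (log2 fold change 0.93, SE 0.261, adjusted p = 0.413). COL2A1 had 94.5, 89.6, 68.3 and 36.9 CPM with the negative lens, against 49.8, 51.5, 44.3 and 50.1 CPM without a lens (0.54, SE 0.212). For both genes the means of the positive and of the negative lens chicks at day 3 lay above that of the shared No Lens chicks, although negative lens chick 69 had less COL2A1 than any No Lens chick. Without negative lens chick 69, edgeR called both genes and 10 members were higher at an unadjusted p below 0.05. All genes called by edgeR ran between 0 and 355 when single chicks were left out. With all chicks, limma-voom had 7 members higher (15.9%), beside 10.5% of all genes higher. With the 3 chicks with striated muscle markers left out, edgeR had 2 members higher and 3 lower, beside 5.28% of all genes higher and 3.42% lower. COL6A3 had 30.5, 27.9, 32.7 and 23.1 CPM in negative lens chicks, against 26.5, 45.7, 49.7 and 48.7 CPM in No Lens chicks (-0.62, SE 0.207).

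**Figure D3:**
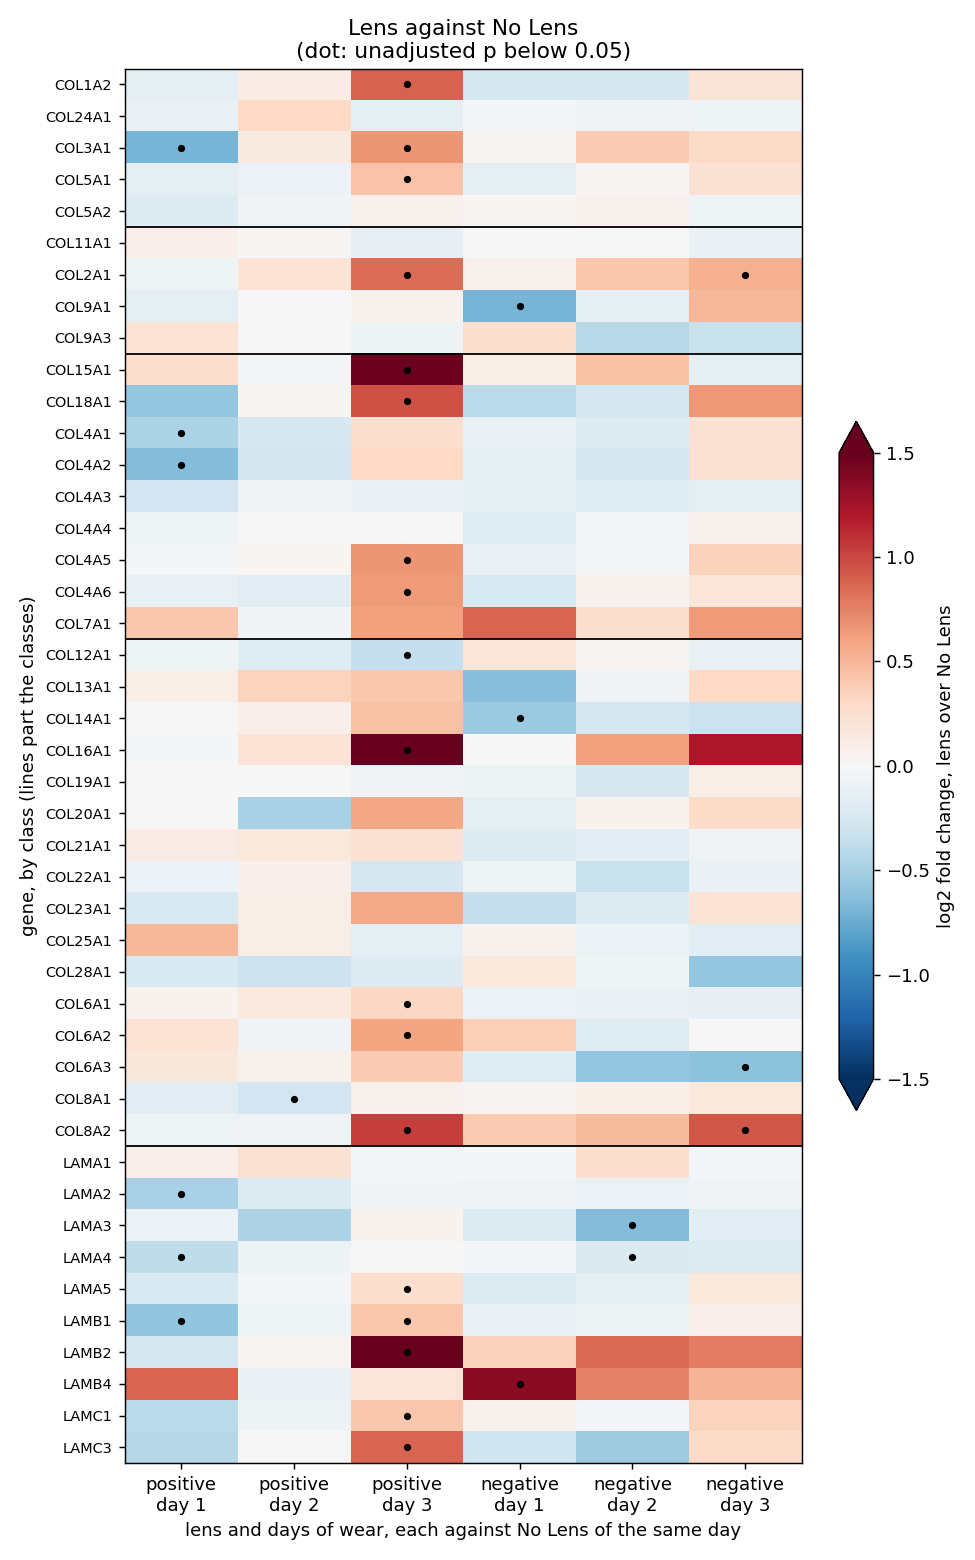
Log2 fold change against No Lens chicks of the same day for each tested member (rows, by class) under the positive lens and the negative lens at days 1, 2 and 3 (columns), on 1 colour scale. The positive lens column of day 3 holds 31 of 44 members above 0 and that of day 1 holds 14 of 44.

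The lenses of opposite sign were compared with each other on each day. No member was called by edgeR, beside 3 genes (0.0262%) at day 1, 6 genes (0.0526%) at day 2 and 4 genes (0.0348%) at day 3. At day 1, 7 members were higher and 3 lower with the negative lens at an unadjusted p below 0.05, beside 1.88% of all genes higher. The 7 were COL3A1, COL4A1, COL4A2, LAMA2, LAMA4, LAMB1 and LAMC1, with log2 fold changes between 0.35 for COL4A1 and 0.72 for COL3A1. COL3A1 had 133, 234, 295 and 263 CPM in negative lens chicks, against 143, 105, 175 and 137 CPM in positive lens chicks, and the groups overlapped through negative lens chick 39. DESeq2 and limma-voom called no member. Without negative lens chick 39, edgeR called COL3A1 and COL4A2. All genes called by edgeR ran between 1 and 17 when single chicks were left out. The count of higher members at an unadjusted p below 0.05 was 4 without positive lens chick 1, 4 without negative lens chick 44 and 3 without negative lens chick 46. At day 2, 1 member was higher at an unadjusted p below 0.05 (COL8A1, 0.39) and 1 lower (COL24A1, -0.36), 2.27% each. Over all genes, 0.859% were higher and 1.92% lower. The lower count of members ran between 0 and 7 when single chicks were left out, with 7 without positive lens chick 13.

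At day 3, 9 members were lower with the negative lens than with the positive lens at an unadjusted p below 0.05 and 0 higher, beside 4.03% of all genes lower. The lowest p was that of COL6A3, the long chain of collagen VI, with 30.5, 27.9, 32.7 and 23.1 CPM in negative lens chicks, against 64.5, 54.7, 37.3 and 68.7 CPM in positive lens chicks. The log2 fold change was -1.002 (SE 0.209; adjusted p = 0.142 by edgeR). DESeq2 called the gene, the 1 member it called in this comparison, beside 38 of 12807 genes, while limma-voom called no member. COL6A1 and COL6A2 had log2 fold changes of -0.44 and -0.59, and edgeR called all 3 collagen VI chains when positive lens chick 33 was left out. All genes called by edgeR ran between 1 and 84 when single chicks were left out. COL1A2, COL4A6, COL14A1, COL15A1, LAMB1 and LAMC3 were the other 6. The count of lower members was 5 without positive lens chick 26 and 5 without positive lens chick 36. Without the 3 chicks with striated muscle markers it was 2 (4.55%), beside 2.71% of all genes lower. The median log2 fold change of the members was then -0.004, against -0.2 with all chicks.

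Between days within a lens group, no member was called by edgeR in any of the 9 comparisons, DESeq2 called 1 (COL3A1 in No Lens chicks) and limma-voom 0. In positive lens chicks, 0 of 11432 genes (0%) were called in each comparison, and at an unadjusted p below 0.05, 9 of 43 members were higher at day 3 than at day 2, beside 2.55% of all genes, and 7 were higher at day 3 than at day 1, beside 3.01% of all genes. The 9 were led by COL15A1, with a log2 fold change of 2.03, and their count was 2 without chick 13, 4 without chick 15, 3 without chick 26, 2 without chick 36, and 5 and 6 without the day 1 chicks 11 and 8, which enter only the shared spread. Without chick 33 the 7 became 11. Without the 3 chicks with striated muscle markers, 0 members were higher at day 3 than at day 2, beside 0.789% of all genes. The median log2 fold change of the members was 0.075 there, against 0.318 with all chicks. At day 3 against day 1, 1 was higher, beside 1.1% of all genes, with a median of 0.039 against 0.28. LAMB1 averaged 88.6 CPM at day 3 and 51.0 CPM at day 1 in these chicks (log2 fold change 0.78, SE 0.197, adjusted p = 0.671). COL4A1, COL4A2, LAMA2, COL15A1, COL3A1 and COL1A2 were the other 6 higher members, between 0.47 and 1.53, and COL25A1, a neuronal transmembrane collagen, was lower (-0.61).

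In No Lens chicks, several members were lower at the later day. At day 3 against day 1, 9 of 43 were lower at an unadjusted p below 0.05 and 0 higher, beside 5.82% of all genes lower. By edgeR 1 gene of 11460 was called there, and 1 at day 3 against day 2 (0.00873% each), and 0 at day 2 against day 1 (0%). None was a member. The 9 lower members became 5 (11.6%) with the No Lens chick with striated muscle markers left out, beside 7.11% of all genes lower. COL3A1 averaged 159.5 CPM at day 3 and 228 CPM at day 1 in No Lens chicks (log2 fold change -0.50, SE 0.134, adjusted p = 0.25 by edgeR), and DESeq2 called it, beside 79 of 5973 genes. COL14A1, with -0.73, COL18A1, with -0.91, and COL16A1, with -1.17, had the largest differences. The count of 9 was 3 without chick 74, 5 without chick 77 and 5 without the day 3 chick with striated muscle markers. The lens comparisons of day 3 use these No Lens chicks. In negative lens chicks 3 of 11368 genes (0.0264%) were called at day 2 against day 1 and 0 in the other comparisons. At an unadjusted p below 0.05, 1 member (COL9A1, 2.27%) was higher at day 2 against day 1, beside 2% of all genes. There 3 members (LAMA4, COL9A3 and COL6A2, 6.82%) were lower, beside 3.57% of all genes. In the other 5 comparisons between days, no more than 2 members passed an unadjusted p of 0.05 in either direction, beside between 0.446% and 2.85% of all genes.

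One test over all 9 groups called COL15A1 (adjusted p = 0.034, edgeR), the 1 member of 45 beside 119 of 11882 genes (1%). COL15A1, a proteoglycan collagen of muscle and vessel basement membranes, had 6.91, 2.70, 2.55 and 15.7 CPM in the positive lens chicks of day 3 and between 1.19 and 3.74 CPM in the 32 chicks other than 26 and 36. The high values, 6.91 CPM in chick 26 and 15.7 CPM in chick 36, were in the libraries with the highest striated muscle marker sums. No member was called without the 3 chicks with such markers, and the call was also lost when any one of 19 of the 34 chicks was left out, chicks 26 and 36 among them. DESeq2 called COL15A1 and COL6A3 in this test, beside 248 of 12560 genes, and limma-voom called COL4A1, beside 119 of 11882 genes. In the positive lens against No Lens comparison of day 3, COL15A1 had a log2 fold change of 1.47 (SE 0.461, adjusted p = 0.0986).

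**Figure D4:**
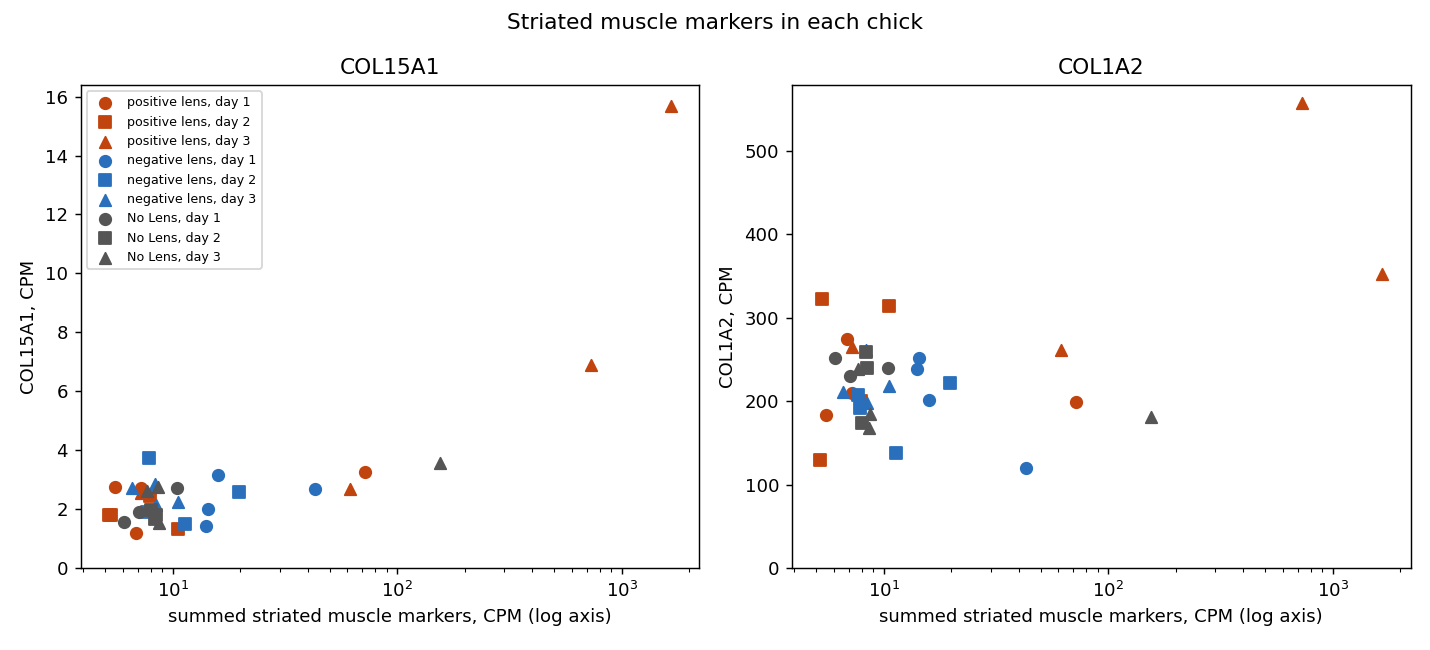
Level of COL15A1 and of COL1A2 in CPM (vertical axes) against the summed striated muscle markers in CPM (horizontal log axis), 1 point per chick for 34 chicks. COL15A1 lies above 3.74 CPM in the chicks at 729 and 1663 CPM of muscle markers and in no other chick. COL1A2 too was highest in these chicks, at 557 and 353 CPM. The next highest COL1A2 level was 322 CPM, in a positive lens chick of day 2 whose muscle markers were below 20 CPM.

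How the members varied between chicks of the same group was measured from the deviations of log2(CPM + 1) from the group means over the 34 chicks. Over 1081 pairs of members the median Pearson correlation was 0.18, between -0.58 and 0.9, and 201 pairs exceeded 0.5. When chicks were permuted within groups (100000 permutations per pair), 188 pairs had a Benjamini-Hochberg adjusted p below 0.05 over the 1081 pairs, 181 of them positive and 7 negative. These deviations share libraries, depth and the make-up of the dissected tissue. The widest spread within groups was that of LAMB2 (SD 1.06 on the log2 scale) and the narrowest that of COL11A1 (SD 0.129). COL1A2 and COL3A1, which are co-expressed in fibroblasts, had r = 0.87 and rho = 0.83 (permutation p = 1e-05, adjusted p = 0.00042). Some partner chains of 1 trimer also went together. The r was 0.83 for COL4A1 and COL4A2, 0.81 for COL4A5 and COL4A6, 0.76 for COL6A1 and COL6A2, and 0.6 for COL4A3 and COL4A4. For these pairs rho was 0.77, 0.75, 0.72 and 0.55, with adjusted permutation p between 0.00064 and 0.034. All 4 of these pairs are neighbours in the genome, and the gene models of COL4A1 with COL4A2 and of COL4A3 with COL4A4 overlap. Other partner chains had lower r, with 0.27 for COL5A1 and COL5A2, 0.41 for COL6A1 and COL6A3, and 0.51 for COL6A2 and COL6A3. COL4A5 had r = 0.07 with COL4A3 and 0.05 with COL4A4. LAMB1 and LAMC1 had r = 0.51 (adjusted permutation p = 0.092). Neighbours did not always go together, since COL9A1 and COL19A1, which overlap, had r = 0.22 (adjusted permutation p = 0.58) and LAMB1 and LAMB4 had r = 0.05.

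LAMB2 varied with a group of members that do not form 1 trimer. Its r was 0.9 with COL2A1, 0.89 with COL7A1, the anchoring fibril collagen, 0.88 with COL18A1, 0.85 with COL16A1, 0.84 with COL5A1, 0.84 with LAMC1 and 0.83 with COL8A2, and rho over these 7 ran between 0.76 and 0.91. Each of the 7 had a permutation p of 1e-05, the smallest that 100000 permutations give, and an adjusted p of 0.00042. Without the 2 chicks farthest from the median of the x-axis gene, r ran between 0.79 and 0.9. With LAMA1 the sign turned, at r = -0.44 and rho = -0.41 (adjusted permutation p = 0.056). The LAMB2 levels at day 2 show the span, with 0.779, 5.80, 2.13 and 9.22 CPM in positive lens chicks, 0.961, 14.2, 9.86 and 6.01 CPM in negative lens chicks and 0.791, 5.32 and 8.21 CPM in No Lens chicks. The low end of LAMB2 rests on few reads, with 3, 4 and 8 counts in chicks 13, 48 and 82 of these groups. Over the 34 chicks the lowest count was 1 for LAMB2, COL7A1 and COL16A1. In each of the 9 groups the chick with the lowest LAMB2 also had the lowest COL2A1 and the lowest COL8A2. The same chick was lowest for COL7A1, COL16A1 and LAMC1 in 8 of 9 groups, for COL5A1 in 7 and for COL18A1 in 6. The same chick also had the lowest summed photoreceptor markers in 8 of 9 groups and the lowest retinal neuron and glia markers in 6. It was lowest in 6 groups for melanocyte and for cartilage markers as well. For RPE, smooth muscle and striated muscle markers it was lowest in 4, for endothelial markers in 3 and for stromal fibroblast and blood cell markers in 2. For the collagen-synthesis genes and basement membrane partners described below it was lowest in 6 and 7. Summed photoreceptor markers ran between 2329 and 3582 CPM in these 9 chicks and between 2732 and 4822 CPM in the other 25, and retinal neuron and glia markers between 2685 and 3787 CPM in the 9 and between 3266 and 4139 CPM in the other 25. The part of any of these cell types in the LAMB2 group was not tested. The library totals of the 9 chicks ran between 1592763 and 9901800 counts. This chick was the shallowest of its group in No Lens chicks at days 1 and 3, negative lens chicks at day 2 and positive lens chicks at day 3, and not in the other groups. The part of depth in the LAMB2 group was not tested. Members that vary together across chicks are not independent measurements in the comparisons of lens groups.

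**Figure D5:**
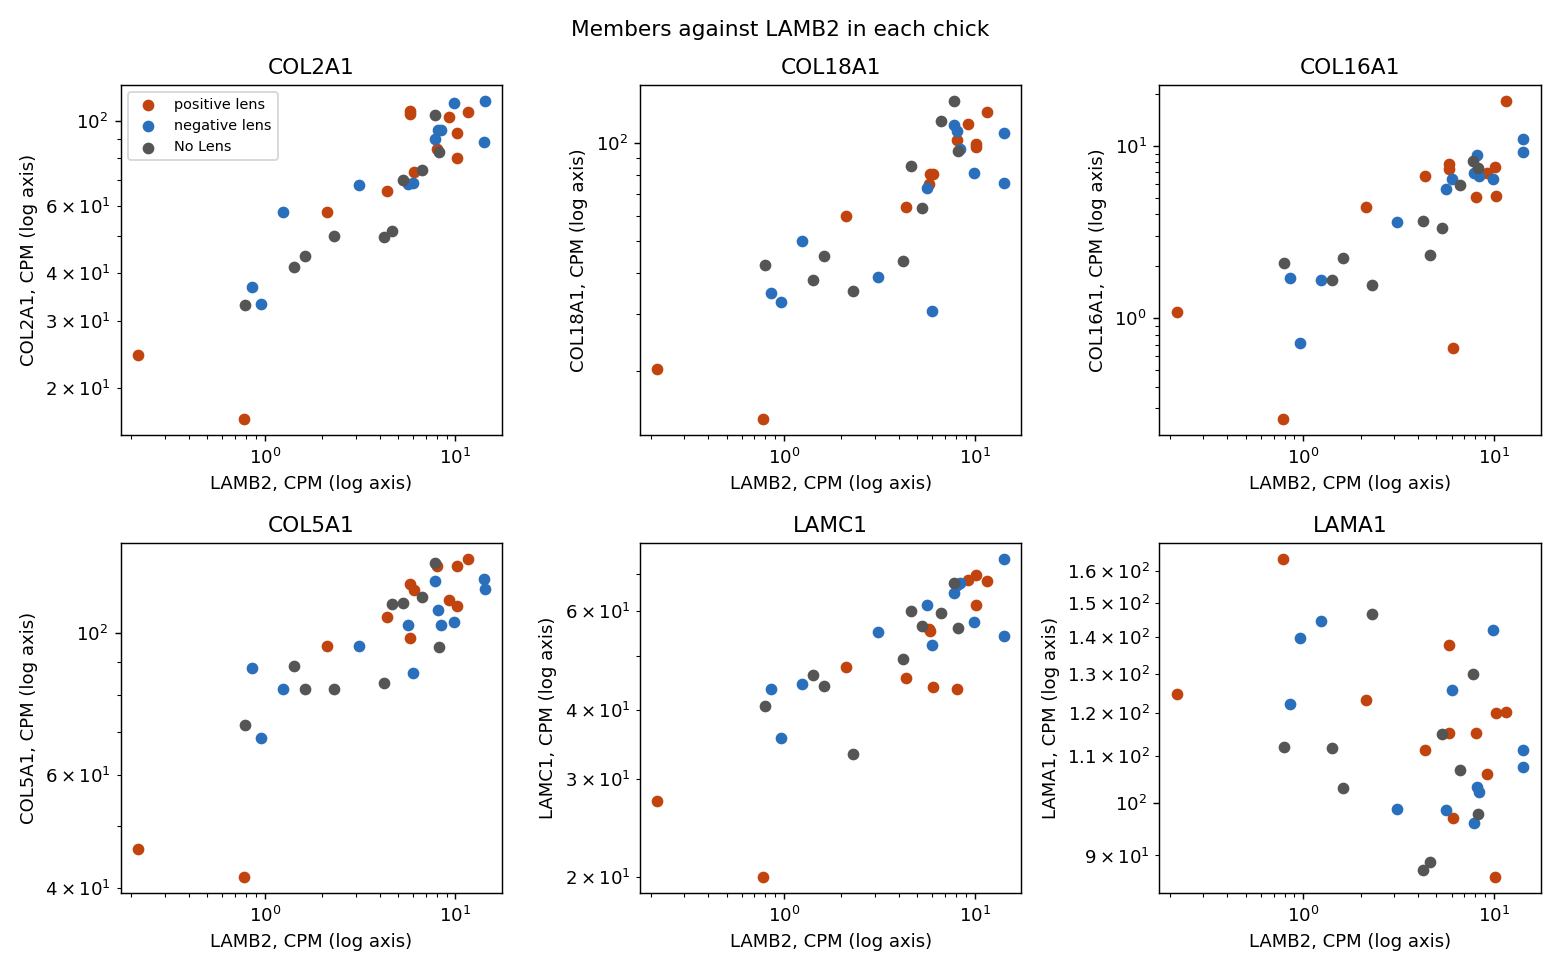
Level in CPM, on log axes, of COL2A1, COL18A1, COL16A1, COL5A1, LAMC1 and LAMA1 (vertical axes) against that of LAMB2 (horizontal axes), 1 point per chick for 34 chicks. The points also carry differences between groups. For deviations from the group means, which are not plotted, r with LAMB2 was between 0.84 and 0.9 for the first 5 genes and -0.44 for LAMA1.

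The transcripts of proteins that make, anchor and bind collagens and laminins were also examined at day 3 of the positive lens, and none was called by edgeR. DESeq2 called 4 genes of collagen synthesis and crosslinking (LOXL1, LOXL2, LOXL3 and PPIB), 3 basement membrane partners (AGRN, NID2 and SPARC) and 1 receptor (DAG1), and limma-voom called 4, 1 and 1, all higher, beside 4.41% of all genes called by DESeq2 and 5.76% by limma-voom. By edgeR, of 25 collagen-synthesis and crosslinking genes, 6 were higher and 0 lower at an unadjusted p below 0.05, beside 13.1% of all genes higher, with a median log2 fold change of 0.105. PPIB, a prolyl isomerase of the collagen folding complex, averaged 59.6 CPM in positive lens chicks and 25.8 CPM in No Lens chicks (log2 fold change 1.21, adjusted p = 0.0605). LOXL2, a lysyl oxidase that crosslinks collagen IV, had a log2 fold change of 1.46 (adjusted p = 0.0641). Of 9 basement membrane partners 3 were higher, led by AGRN, a heparan sulphate proteoglycan (0.50, adjusted p = 0.0537), and NID2, which links laminin to collagen IV (0.80, adjusted p = 0.0832). Of 7 receptors 2 were higher, DAG1, the dystroglycan laminin receptor (0.62), and ITGA11, a collagen I receptor subunit (0.38). Stromal fibroblast markers had a median log2 fold change of 0.362 in the same comparison, with 3 of 6 higher at an unadjusted p below 0.05. Their summed level ran between 274.5 and 487 CPM in positive lens chicks and between 239.5 and 364 CPM in No Lens chicks at day 3, and their part in the fibrillar collagen values was not tested.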

How the data were processed

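Poly(A) RNA of retina, RPE and choroid of 34 chicks was sequenced, 1 stranded library per chick. The deposited values are raw counts of reads assigned to a single gene, which the authors made by trimming (cutadapt, Trimmomatic), alignment to galGal4 (TopHat2, Bowtie2) and HTSeq counting. Tool versions and the strand setting of the counting are not given in the sources used here. The count column of No Lens chick 100 at day 3 carried a suffix of unstated meaning and was matched to the chick by its number. Libraries held between 1592763 and 13765634 counts, so differences in members of few reads were less well resolved than in abundant ones.

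From these counts, genes were filtered with filterByExpr (minimum count 10, minimum total 15), scaled by TMM and tested with the quasi-likelihood test of edgeR 4.0.16 in R 4.3.3, with Benjamini-Hochberg adjustment over all genes tested and a threshold of 0.05. Lens groups were compared within each day, days within each lens group, and the interaction and the test over 9 groups used all 34 chicks. In all there were 21 comparisons. Alternatives were DESeq2 1.42.0 (with a shrinkage prior), limma 3.58.1 (voom with quality weights), RLE scaling, no filter, all 34 chicks in 1 fit and leaving out each chick. Added after seeing the data were 1 surrogate variable (sva 3.50.0) and leaving out 3 day 3 chicks whose striated muscle markers summed to over 100 CPM. The edgeR, limma-voom, DESeq2 and surrogate variable fits were also run on simulated counts, for a part of the 21 comparisons. The other alternatives were not. Correlations used deviations of log2(CPM + 1) from group means.

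The members and lists were chosen with earlier results of these data known. Values by chick or by group are given for members called in any comparison, the 3 with the lowest p in each lens against No Lens comparison, the 2 with the most reads per class and those DESeq2 called, 24 members in all. COL18A1, for which values by chick are also given, lies outside this rule. Of pathway lists the genes with the lowest p were named.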

Additional observations from a re-analysis of the deposited data

Results flagged for a closer look

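The 24 named members, not all 47, were examined in the groups of 4 chicks. In 8 of these 168 member and group combinations (4.76%), 1 chick stood apart from the other 3 by Dixon's criterion at the 95% level. By chance alone about 1 in 20 is set apart. The 8 were spread over 8 genes and 6 groups. In positive lens chicks, COL4A2 was 97.3 CPM in chick 11 at day 1, where the others had 83.2 to 84.97 CPM, and COL8A1 was 99.0 CPM in chick 13 at day 2, where the others had 125 to 129 CPM. In negative lens chicks, LAMB1 was 49.2 CPM in chick 39 at day 1, where the others had 77.9 to 81.95 CPM. At day 2, COL4A1 was 278 CPM in negative lens chick 48 (others 205 to 217 CPM), LAMB4 was 0.481 CPM in the same chick (others 2.31 to 2.40 CPM) and LAMA4 was 60 CPM in chick 49 (others 54.9 to 55.3 CPM). At day 3, LAMA2 was 75.8 CPM in negative lens chick 69, where the others had 102.2 to 105.7 CPM. In No Lens chicks, COL5A1 was 111 CPM in 1 chick at day 3, where the others had 81.8 to 83.5 CPM. Chicks 13, 39, 48 and 69 were also the lowest of their groups for LAMB2, COL2A1 and COL8A2.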

How the results depend on the processing

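No paired analysis was possible because the lens and No Lens groups hold different chicks that share no number. The number of members called was 0 under every alternative, leaving out single chicks included, in 14 of the 21 comparisons. For the positive lens against No Lens at day 3 the count was 1 by edgeR, 9 by DESeq2, 8 by limma-voom, 0 with all 34 chicks in 1 fit, 0 with 1 surrogate variable, 0 without the 3 day 3 chicks with striated muscle markers and 0 to 11 when single chicks were left out. All genes called in that comparison numbered 101 by edgeR, 532 by DESeq2, 662 by limma-voom, 6 with all 34 chicks in 1 fit, 85 with 1 surrogate variable and 0 without the 3 chicks. They ran between 0 and 779 when single chicks were left out. Leaving out single chicks gave 0 to 2 members for the negative lens against No Lens at day 3, 0 to 2 for the negative against the positive lens at day 1 and 0 to 3 for the same at day 3, where DESeq2 called 1. All genes called in these leave-out fits ran, in the same order, between 0 and 355, between 1 and 17 and between 1 and 84. All 34 chicks in 1 fit gave 1 member for the positive lens at day 3 against day 2, and DESeq2 gave 1 for No Lens chicks at day 3 against day 1. The test over all 9 groups gave 1 member by edgeR, 2 by DESeq2, 0 without the 3 day 3 chicks and 0 to 1 when single chicks were left out. The cause of these differences was not tested, save that fits without chicks hold fewer animals. No named gene changed direction in any of 449 settings tried over 25 gene results, 24 of which newly passed the threshold and 18 of which no longer did. Of the class sums, 90 of 90 alternatives moved by less than 1 SD between chicks.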
